A study of Mus musculus with 2 samples.

Results

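Interleukin-1 (IL-1) ligands, their antagonist and their receptor chains were described in tumor-associated neutrophils (TANs) from 6 genes, Il1a, Il1b, Il18, Il1rn, Il1r2 and Il1rap, which were picked by symbol among the 31053 genes of the count table and were all present in it. Single-cell RNA libraries had been made with a 5′ kit from CD11b+Ly6G+ cells sorted from subcutaneous tumors of Lewis lung carcinoma (LLC), a mouse lung carcinoma line. The hosts were mice of C57BL/6J background, 8 to 12 weeks of age, either Smad3+/+ (Smad3-WT) or Smad3-/- (Smad3-KO), so that host cells of every type carried the deletion and not the neutrophils alone, while the inoculated line was the same in both. Tumors were pooled, 8 for each genotype, and gave 1 library per genotype. Without replicates no difference between genotypes could be tested. Each interval given is a 95% interval for counting only, of unique molecular identifiers (UMIs) or, for shares of cells, of the cells of 1 library. A difference between the libraries cannot be told apart from a difference between their preparations.

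From Smad3-WT came 4116 barcodes with 23951400 UMIs, from Smad3-KO 2514 barcodes with 4214290 UMIs, and the filter of the methods kept 3520 and 2433 cells, with medians of 1318.5 and 1199 UMIs. An upper limit of 20000 UMIs removed 382 barcodes of the first library and 0 of the second, and 73 barcode sequences occurred in both. Smad3 itself gave 178 and 321 UMIs in the kept cells, but tags from the 5′ end of a transcript do not check the deletion. Cells were clustered without the IL-1 family genes and the 17 clusters were named from fixed markers. Neutrophil-like clusters held 1811 Smad3-WT cells (51.4%) and 1055 Smad3-KO cells (43.4%), so the sorted cell type carried its markers in only part of each library. The other classes were monocyte-like (763 and 64 cells), macrophage-like (409 and 89), dendritic-like (30 and 67), T-like (61 and 453), B-like (2 and 614), LLC carcinoma-like (396 and 23) and fibroblast-like cells (48 and 68). The sort markers Itgam and Ly6g gave 2799 and 49 UMIs in Smad3-WT and 400 and 253 UMIs in Smad3-KO.

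IL-1α (Il1a) and IL-1β (Il1b) are inflammatory ligands of the same receptor, IL1R1, which needs the co-receptor IL1RAP to signal through MYD88. The antagonist IL-1Ra (Il1rn) occupies IL1R1 without signalling, and IL1R2 is a decoy that binds the ligands but lacks a signalling domain. IL-18 (Il18) is a related ligand with a receptor of its own. IL-1β and IL-18 are made as precursors that are cut by caspase-1, so a transcript level does not give the amount of active cytokine, and neutrophils are known as a source of IL-1β, IL-1Ra and IL1R2.

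In RefSeq for the build GRCm38.p6, Il1a (ENSMUSG00000027399; chromosome 2, 129299609 to 129310186) and Il1b (ENSMUSG00000027398; chromosome 2, 129364569 to 129371164) lie close together on the minus strand. Il1rn (ENSMUSG00000026981; chromosome 2, 24336860 to 24351491) lies elsewhere on the same chromosome, on the plus strand. The decoy receptor gene Il1r2 (ENSMUSG00000026073; chromosome 1, 40084692 to 40125230), the co-receptor gene Il1rap (ENSMUSG00000022514; chromosome 16, 26581509 to 26730128) and Il18 (ENSMUSG00000039217; chromosome 9, 50554700 to 50581841) are on the plus strand. The 250 bases before starts that RefSeq's promoter table gives are printed for Il1a, Il1b, Il1rn and Il1r2, picked with their levels known. For Il1a, Il1b, Il1r2 and start 3 of Il1rn this start lies inside the span of the gene given above, so those windows overlap or lie within the gene. Capitals mark the motifs found among 5 that were searched on both strands, namely GGNNTTTCC (an NF-kB form, in 4.93% of 32851 RefSeq promoter windows of this length), TGANTCA (AP-1, in 6.75%), TTGCNNAA (C/EBP, in 9.56%), TATAAA (the TATA motif, in 12.4%) and CAGACA (a Smad box, in 17.1%).
Il1a, chr2:129309973-129310222, minus strand: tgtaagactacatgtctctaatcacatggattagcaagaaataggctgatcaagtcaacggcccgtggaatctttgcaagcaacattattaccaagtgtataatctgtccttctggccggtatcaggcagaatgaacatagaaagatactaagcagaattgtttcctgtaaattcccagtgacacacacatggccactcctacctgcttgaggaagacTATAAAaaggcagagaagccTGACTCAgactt
Il1b, chr2:129371140-129371389, minus strand: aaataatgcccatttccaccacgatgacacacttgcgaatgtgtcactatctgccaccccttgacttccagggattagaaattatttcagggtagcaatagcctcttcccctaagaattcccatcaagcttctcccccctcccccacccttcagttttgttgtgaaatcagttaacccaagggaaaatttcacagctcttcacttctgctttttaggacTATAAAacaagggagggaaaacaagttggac
Il1rn start 1, chr2:24336610-24336859, plus strand: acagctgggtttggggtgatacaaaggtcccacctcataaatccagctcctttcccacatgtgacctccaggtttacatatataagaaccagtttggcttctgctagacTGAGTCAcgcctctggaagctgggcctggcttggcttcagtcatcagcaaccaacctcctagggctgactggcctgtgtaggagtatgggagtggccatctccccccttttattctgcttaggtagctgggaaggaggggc
Il1rn start 3, chr2:24345121-24345370, plus strand: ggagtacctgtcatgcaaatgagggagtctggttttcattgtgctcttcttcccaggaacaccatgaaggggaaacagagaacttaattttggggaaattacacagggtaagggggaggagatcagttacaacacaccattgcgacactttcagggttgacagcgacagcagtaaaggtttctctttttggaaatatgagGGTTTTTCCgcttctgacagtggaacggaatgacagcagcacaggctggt
Il1r2, chr1:40085843-40086092, plus strand: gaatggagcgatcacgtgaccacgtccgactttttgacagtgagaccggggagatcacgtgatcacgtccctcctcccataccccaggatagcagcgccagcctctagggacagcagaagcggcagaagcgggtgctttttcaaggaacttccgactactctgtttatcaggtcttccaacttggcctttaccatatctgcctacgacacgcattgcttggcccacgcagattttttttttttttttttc
The windows of Il1a and Il1b each held a TATA box, with its first base at position -32 and -31 from the start, and that of Il1a held in addition an AP-1 match from -12 to -6. Of the 3 annotated starts of Il1rn, start 1 had an AP-1 match from -141 to -135 and start 3 an NF-kB match from -50 to -42, and counts per gene did not separate these starts. None of the 5 motifs was found in the window of Il1r2, and no 2 matches overlapped. These are matches of letters only.

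Il1a was higher and Il1r2 lower in the Smad3-KO neutrophil-like cells, and Il1rn was moderately higher. Il1b, Il1rap and Il18 lay within counting error of the Smad3-WT level under scaling by total UMIs. Scaled by the median of gene ratios, their ratios were 1.30, 1.21 and 1.43, each with an interval above 1. Of the 6 genes, 1 was at or past 2-fold higher and 1 at or past 2-fold lower, where 7.61% of the 5851 genes with at least 20 UMIs were past 2-fold higher and 20.5% past 2-fold lower. The median ratio over all those genes was 0.765 and not 1, so a gene at an equal share of UMIs lay above most genes. The median ratio of the 6 genes was 1.07.

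**Figure D1:**
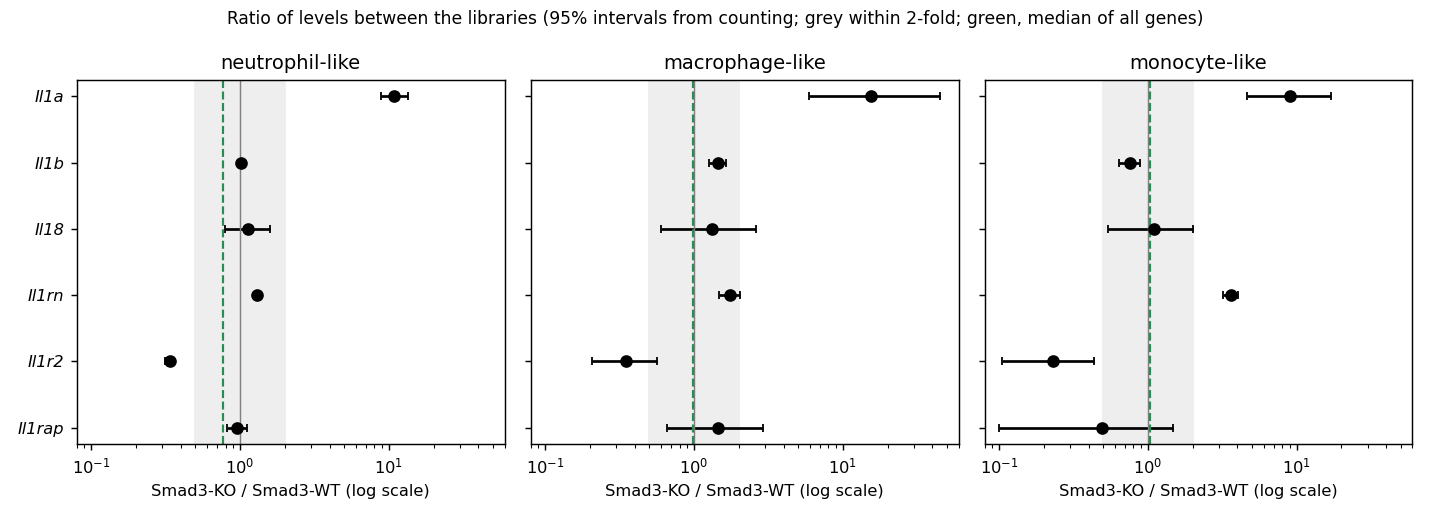
Ratio of each gene's level in Smad3-KO to that in Smad3-WT cells of 3 classes, on a log axis, with bars for the 95% counting interval, a grey band for changes within 2-fold and a green line at the median of all genes. Il1a lies right of the band and Il1r2 left of it in each of the 3 classes, and Il1rn lies right of it in monocyte-like cells.

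The ligand gene Il1a gave 104 UMIs in Smad3-WT and 904 UMIs in Smad3-KO neutrophil-like cells. Its level was 66.8 CPM (counts per 1000000 UMIs of the class; interval 54.6 to 81.0) in Smad3-WT and 722 CPM (interval 676 to 770) in Smad3-KO. The ratio was 10.8 (interval 8.81 to 13.4), with intervals of the levels far apart. The share of neutrophil-like cells with at least 1 Il1a UMI was 3.37% and 34.6%. With each cell thinned to 500 UMIs, which removes the difference in depth between medians of 736 and 1001 UMIs, the shares were 2.21% (interval 1.58 to 3.0) and 20% (interval 17.6 to 22.5). T-like cells, which should not express the gene, had a thinned share of 0% in Smad3-WT, with 0 of 61 cells and an interval up to 5.87%, and 0.221% in Smad3-KO, at median depths of 3331 and 1339 UMIs. Il1a was thus found in a minority of the neutrophil-like cells of either library, and the thinned maximum was 5 UMIs in a Smad3-WT cell and 10 in a Smad3-KO cell.

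Neutrophil-like cells of the 2 libraries fell mostly into different clusters. Cluster 1, led by Mmp9, Cxcr2 and G0s2, held 1325 of the Smad3-WT cells and 138 of the Smad3-KO cells. Cluster 2, led by Tnfaip3, Chil1 and Lcn2, held 8 and 734. Cluster 6, led by Ddit3 and Hcar2, held 350 and 111, cluster 10, led by interferon-response genes such as Ifit3 and Ifit1, held 127 and 12, and cluster 15, led by the granule genes Camp, Ngp and Ltf, held 0 and 60. An interferon-response marker passed if found in at least 10% of a cluster's cells at 2 or more times the level of other cells. Of 8 such markers, 8 passed in cluster 2 as in cluster 10, 3 in cluster 6, 1 in cluster 1 and 0 in cluster 15.

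**Figure D2:**
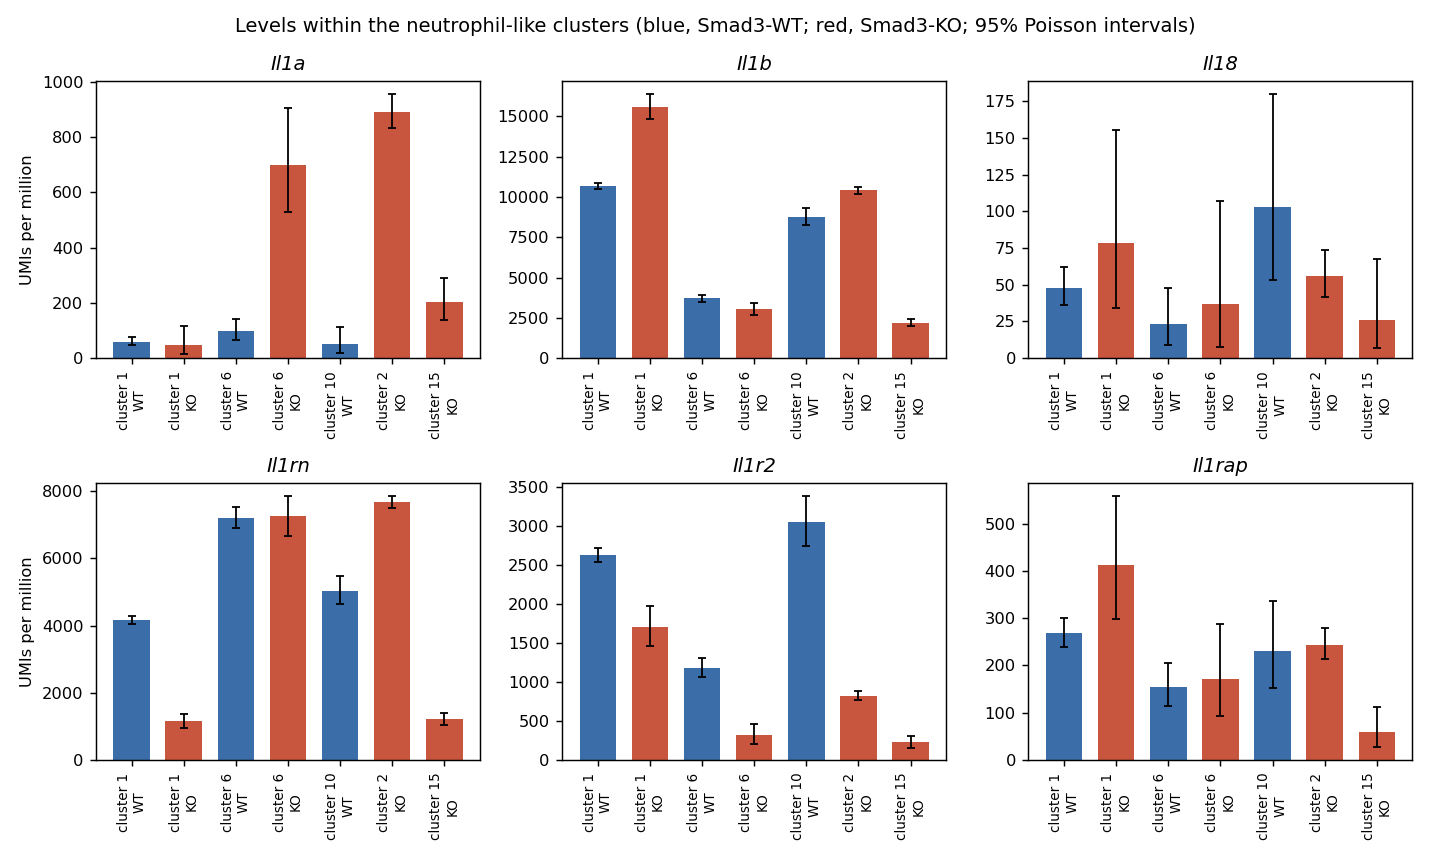
Level of each gene, in CPM, in the neutrophil-like clusters with at least 30 cells of a library, with bars from 0 and 95% Poisson intervals. Il1a is high in Smad3-KO cells of clusters 2 and 6 but not of cluster 1, and Il1rn is lowest in Smad3-KO cells of clusters 1 and 15.

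For the Smad3-KO cells of cluster 2 the Il1a level was 891 CPM (interval 830 to 954), and 24.8% of them held it after thinning. In cluster 6 it stood at 98.9 CPM in Smad3-WT and 697 CPM in Smad3-KO cells (ratio 7.05, interval 4.45 to 11.4). In cluster 1 it stood at 60.2 CPM (68 UMIs) in Smad3-WT and 49.2 CPM (5 UMIs) in Smad3-KO cells (ratio 0.817, interval 0.257 to 2.0). The higher level was therefore not seen in those Smad3-KO neutrophil-like cells that clustered with most of the Smad3-WT cells, although 5 UMIs leave a wide interval. The granule cluster 15 had 204 CPM (interval 139 to 289) and the Smad3-WT cells of cluster 10 had 51.5 CPM (interval 18.9 to 112). Over clusters 1 and 6 alone, which held at least 30 cells of each library, the ratio of Il1a was 4.94.

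Il1b, the gene of the other IL-1 agonist, gave 14279 UMIs in Smad3-WT and 11727 UMIs in Smad3-KO neutrophil-like cells. The levels were 9177 CPM (interval 9027 to 9329) and 9364 CPM (interval 9195 to 9535), with a ratio of 1.02 (interval 0.996 to 1.05). The intervals overlapped, and the ratio became 1.30 when the libraries were scaled by the median of gene ratios, so it lay within counting error of 1 under the first scaling and above it under the second. Thinned shares of cells with the transcript were 81.5% (interval 79.6 to 83.3) and 84.8% (interval 82.5 to 86.9). Among T-like cells, which should lack Il1b, the thinned shares were 19.7% and 6.84%.

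Within clusters the Il1b levels of the libraries moved in opposite directions under scaling by total UMIs, the only scaling used for single clusters. In cluster 1 the level was 10672 CPM in Smad3-WT and 15589 CPM in Smad3-KO cells (ratio 1.46, interval 1.39 to 1.54). In cluster 6 it was 3713 and 3045 CPM (ratio 0.820, interval 0.712 to 0.941). Thinned shares of cells with Il1b were 88.2% and 95.7% in cluster 1, with intervals apart. In cluster 6 they were 54.9% and 54.1%, with overlapping intervals. Smad3-KO cells of cluster 2 had 10424 CPM (interval 10215 to 10636), close to the Smad3-WT cells of cluster 1, Smad3-WT cells of cluster 10 had 8772 CPM, and cells of the granule cluster 15 had 2210 CPM (interval 1980 to 2460). Thus the level of Il1b varied more among neutrophil-like clusters than between the libraries. Without the granule cluster the ratio in the class was 1.13 (interval 1.10 to 1.16).

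Il18 was sparse in neutrophil-like cells, with 74 UMIs in Smad3-WT and 67 UMIs in Smad3-KO. The levels were 47.6 CPM (interval 37.3 to 59.7) and 53.5 CPM (interval 41.5 to 67.9), a ratio of 1.12 (interval 0.796 to 1.59). Scaling by the median of gene ratios put that ratio at 1.43 (interval 1.01 to 2.02). Monocyte-like cells had 68.6 CPM (interval 58.8 to 79.5) in Smad3-WT and 74.9 CPM (interval 37.4 to 134) in Smad3-KO. Il18 was the only gene of the 6 whose level was higher in monocyte-like than in neutrophil-like cells in both libraries, and in both the intervals overlapped. Of all Il18 UMIs in Smad3-WT cells, 41.9% came from monocyte-like, 22.9% from LLC carcinoma-like and 17.6% from neutrophil-like cells. Of the UMIs of all genes in Smad3-WT, these classes held 21.1%, 40.5% and 12.8%. In Smad3-KO 58.3% of the Il18 UMIs came from neutrophil-like cells, which held 30.2% of the UMIs of all genes there. The LLC carcinoma-like cells of Smad3-WT had 19.5 CPM (interval 15.8 to 23.8), and the 23 such cells of Smad3-KO gave 0 UMIs, with an interval up to 155 CPM. Median depths of these cells were 13269.5 UMIs in Smad3-WT and only 614 UMIs in Smad3-KO.

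The antagonist gene Il1rn gave 7509 UMIs in Smad3-WT and 7881 UMIs in Smad3-KO neutrophil-like cells, or 4826 CPM (interval 4718 to 4936) and 6293 CPM (interval 6155 to 6433). The ratio was 1.30 (interval 1.26 to 1.35), above the count error but within 2-fold, and 1.66 under median-of-ratios scaling. Thinned shares were 71.3% (interval 69.1 to 73.4) and 78.1% (interval 75.5 to 80.6), against 11.5% and 5.74% in T-like cells. The study kept cells as neutrophils by markers that included Il1rn, and that filter was not used here.

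The direction of Il1rn depended on the cluster. In cluster 1 the level was 4171 CPM (interval 4053 to 4292) in Smad3-WT and 1151 CPM (interval 952 to 1380) in Smad3-KO cells, so that Smad3-KO was 3.62-fold lower (interval 3.02 to 4.39). In cluster 6 the levels were 7211 and 7251 CPM, a ratio of 1.01 (interval 0.917 to 1.10). Smad3-KO cells of cluster 2 had 7666 CPM (interval 7488 to 7849), near the level of cluster 6, and those of the granule cluster 15 had 1217 CPM (interval 1048 to 1406). Over clusters 1 and 6 alone the ratio was 0.804, which turns the direction, and cluster 2 held 6973 of the 7881 Smad3-KO UMIs of Il1rn. Smad3-KO cells of cluster 1 had the highest Il1b level of these clusters together with an Il1rn level whose interval overlapped that of the granule cluster, the other low one.

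Il1r2, which encodes the decoy receptor, gave 3692 UMIs in Smad3-WT and 1001 UMIs in Smad3-KO neutrophil-like cells. The levels were 2373 CPM (interval 2297 to 2451) and 799 CPM (interval 751 to 850), 2.97-fold lower in Smad3-KO (interval 2.77 to 3.19). Thinned shares were 61.0% (interval 58.7 to 63.2) and 30.7% (interval 27.9 to 33.6), with 3.28% and 1.77% in T-like cells. Unlike Il1b and Il1rn, the lower level was found in both clusters that held at least 30 cells of each library, and it was 1.54-fold lower (interval 1.32 to 1.81) in cluster 1 and 3.71-fold lower (interval 2.49 to 5.76) in cluster 6. Within Smad3-KO the level ran from 1703 CPM in cluster 1 through 820 CPM in cluster 2 and 318 CPM in cluster 6 to 224 CPM in cluster 15, and the intervals of the last pair overlapped. Within Smad3-WT it ran from 3053 CPM in cluster 10 and 2627 CPM in cluster 1 to 1180 CPM in cluster 6. Cells assigned 1 by 1 from marker UMIs, without clusters, gave a ratio of 0.519, short of 2-fold.

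Il1rap, the co-receptor gene, gave 379 and 290 UMIs in neutrophil-like cells, or 244 CPM (interval 220 to 269) in Smad3-WT and 232 CPM (interval 206 to 260) in Smad3-KO. The ratio was 0.951 (interval 0.813 to 1.11), and the scaling by the median of gene ratios put it at 1.21 (interval 1.04 to 1.41). In cluster 1 the level was 268 CPM in Smad3-WT and 413 CPM in Smad3-KO cells (ratio 1.54, interval 1.09 to 2.13), and in cluster 6 it was 155 and 171 CPM (ratio 1.10, interval 0.562 to 2.04). Thinned shares were 11% and 9.67%, against 1.64% and 0.662% in T-like cells, so no difference in the share of cells was detectable at this depth. The gene of the signalling receptor, Il1r1, gave 3 UMIs in Smad3-WT and 1 UMI in Smad3-KO neutrophil-like cells. Its level was 94.0 CPM (interval 63.9 to 133) in Smad3-WT and 185 CPM (interval 144 to 234) in Smad3-KO fibroblast-like cells, and 31.2 CPM (interval 26.5 to 36.6) in LLC carcinoma-like cells of Smad3-WT. Transcripts of the co-receptor and of the decoy were therefore found in neutrophil-like cells in which those of the signalling chain were near 0.

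Shares among IL-1 transcripts within the same cells do not depend on the scaling between libraries. Il1a made up 0.723% (interval 0.591 to 0.876) of the Il1a and Il1b UMIs in Smad3-WT and 7.16% (interval 6.71 to 7.62) in Smad3-KO neutrophil-like cells. In cluster 6 the share was 2.60% and 18.6%, in cluster 2 it was 7.87%, and in cluster 1 it was 0.561% in Smad3-WT and 0.315% in Smad3-KO. Il1rn made up 34.3% (interval 33.7 to 34.9) of the UMIs of Il1a, Il1b and Il1rn in Smad3-WT and 38.4% (interval 37.8 to 39.1) in Smad3-KO neutrophil-like cells. The clusters spanned a far wider range, from 6.86% (interval 5.70 to 8.16) in Smad3-KO cells of cluster 1 to 66.0% (interval 62.8 to 69.1) in those of cluster 6. In cluster 6 the share of Il1rn was 65.4% in Smad3-WT, within the interval of Smad3-KO.

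**Figure D3:**
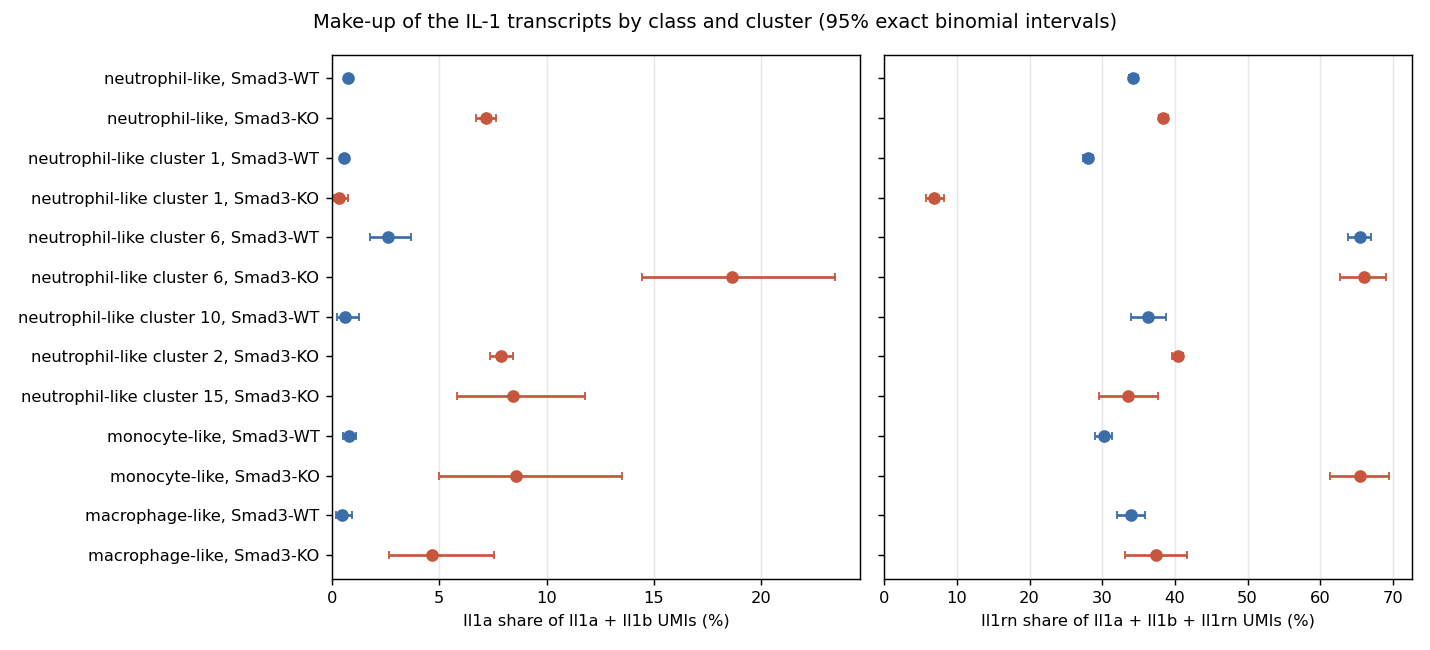
Left, share of Il1a among the UMIs of both agonists and, right, share of Il1rn among the UMIs of the agonists and the antagonist, in percent, with exact 95% binomial intervals, for classes and neutrophil-like clusters of each library (blue, Smad3-WT, and red, Smad3-KO). Where both libraries are drawn the Il1a share is higher in Smad3-KO except in cluster 1, and the Il1rn share ranges from 6.86% to 66.0%.

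Co-detection was read in cells thinned to 500 UMIs, as a description of cells that share a library. Among Smad3-KO neutrophil-like cells with an Il1a UMI, 89.6% (interval 84.6 to 93.3) also held Il1rn, against 75.2% (interval 72.2 to 78.1) of those without Il1a. Il1b was found in 89.6% of the cells with Il1a (interval 84.6 to 93.3) and in 83.6% (interval 81.0 to 86.1) of the others, and these intervals overlapped. Within cluster 2 alone, Il1rn was found in 92.3% of the cells with Il1a (interval 87.4 to 95.7) and in 89.1% of those without (interval 86.2 to 91.6), so the gap seen over all neutrophil-like cells was not detectable inside that cluster. In Smad3-WT, 40 cells held Il1a, and 80.0% of them held Il1b (interval 64.4 to 90.9), which overlapped the 81.5% of the others (interval 79.6 to 83.3).

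The decoy was found more often in cells with Il1b than in cells without it, in both libraries. Il1r2 was found in 64.4% of Smad3-WT cells with Il1b (interval 61.9 to 66.8) and in 46.0% of those without (interval 40.5 to 51.5), and in Smad3-KO in 34.3% (interval 31.2 to 37.5) and 10.6% (interval 6.31 to 16.5). Within each single cluster given here the share was also higher with Il1b, but the intervals overlapped. In cluster 1 of Smad3-WT the shares with and without Il1b were 67.8% (interval 65.0 to 70.5) and 59.2% (interval 51.1 to 67.0). They were 39.6% (interval 32.6 to 46.9) and 27.2% (interval 20.4 to 34.9) in cluster 6 of Smad3-WT. For cluster 2 of Smad3-KO they were 32.1% (interval 28.6 to 35.8) and 17.2% (interval 8.90 to 28.7). Overlap alone does not show that a difference is absent. Of Smad3-WT cells with Il1a, 40.0% held Il1r2 (interval 24.9 to 56.7), against 61.4% of those without (interval 59.1 to 63.7), whereas in Smad3-KO the shares of 26.1% and 31.9% had overlapping intervals. For Il1rn and Il1r2 the intervals overlapped in both libraries, since 59.0% of Smad3-WT cells with Il1rn held Il1r2 (interval 56.3 to 61.7) against 65.8% of those without (interval 61.5 to 69.8), and in Smad3-KO 29.0% (interval 25.9 to 32.2) against 36.8% (interval 30.6 to 43.4). After thinning, 39.0% (Smad3-WT) and 41.3% (Smad3-KO) of neutrophil-like cells held 2 of the 6 genes, 37.2% and 30.9% held 3, 1.60% and 3.79% held none, and 0 cells held all 6.

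Outside the neutrophil-like cells, transcripts of the same genes were found at a fraction of the neutrophil-like level, except Il18 in monocyte-like cells. Monocyte-like cells had Il1a at 12.1 CPM (31 UMIs) in Smad3-WT and 109 CPM (16 UMIs) in Smad3-KO, a ratio of 9.02 (interval 4.61 to 17.0). Their Il1rn level was 672 CPM (interval 641 to 705) in Smad3-WT and 2418 CPM (interval 2173 to 2683) in Smad3-KO, a ratio of 3.60 (interval 3.20 to 4.03), and their Il1r2 level was 268 CPM in Smad3-WT and 61.3 CPM (9 UMIs) in Smad3-KO, a ratio of 0.229 (interval 0.104 to 0.437). Il1b was 1543 CPM in Smad3-WT and 1165 CPM in Smad3-KO monocyte-like cells (ratio 0.755, interval 0.644 to 0.880). The 6 genes thus held 2 past 2-fold higher and 2 past 2-fold lower, where 13% and 15.4% of 7712 genes were past 2-fold higher and lower. Of the 2 lower genes, Il1rap rested on 3 Smad3-KO UMIs (ratio 0.490, interval 0.0995 to 1.47). The Smad3-KO side held only 64 cells, and these monocyte-like ratios were not recomputed under other filters, scalings or clusterings. Monocyte-like cluster 3 held 59 of these cells but only 258 of their 355 Il1rn UMIs. Its Smad3-KO level of 1956 CPM (1724 to 2209) was below that of the class, and its Smad3-WT level was 679 CPM. All other Smad3-KO Il1rn UMIs of the class lay in 5 cells of cluster 14. Counting intervals do not account for UMIs that share a cell.

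Macrophage-like cells had 1 of the 6 genes past 2-fold higher and 1 past 2-fold lower, where 10.3% and 13.6% of 8427 genes were past 2-fold higher and lower. Il1a was 2.92 CPM (7 UMIs) in Smad3-WT and 45.3 CPM (15 UMIs) in Smad3-KO, a ratio of 15.5 (interval 5.96 to 45). These UMIs lay in 3 of 409 Smad3-WT cells and 8 of 89 Smad3-KO cells, and the interval does not account for UMIs that share a cell. Il1r2 was 156 CPM in Smad3-WT and 54.4 CPM (18 UMIs) in Smad3-KO, a ratio of 0.350 (interval 0.205 to 0.560). Il1b was 644 and 928 CPM (ratio 1.44, interval 1.27 to 1.63) and Il1rn 333 and 580 CPM (ratio 1.74, interval 1.48 to 2.04), both within 2-fold in these sums of UMIs. With each cell thinned to 500 UMIs, from medians of 5488 and 3114 UMIs, Il1b was 2.01 (interval 1.43 to 2.77) and Il1rn 2.47 (interval 1.60 to 3.76). However, 1 Smad3-KO cell held 17 of the 55 thinned Il1b UMIs. Thinned shares of cells with Il1b were 19.8% (interval 16.1 to 24.0) and 23.6% (interval 15.2 to 33.8), which overlapped. For Il1rn they were 11.7% (interval 8.78 to 15.3) and 24.7% (interval 16.2 to 35.0). As a mean over unthinned cells the ratios were 1.87 for Il1b and 2.25 for Il1rn. The ratios of Il1a, Il1r2 and Il1rn changed with how the cells were grouped. When the clustering used 30 principal components, Il1a was 1.60 (interval 0.182 to 6.54), on 21 and 2 UMIs, and Il1r2 0.704 (interval 0.254 to 1.57), on 143 and 6 UMIs, while Il1rn was 2.66 (interval 2.15 to 3.27). Il1r2 was also within 2-fold at a clustering resolution of 2.0 (0.797), with the filter of at least 500 UMIs and at most 20% mitochondrial UMIs (0.822), and with cells assigned 1 by 1 by marker UMIs (0.710). Under the same 3 settings Il1rn was past 2-fold higher, at 3.79, 2.28 and 2.54.

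Neutrophil markers were found in the same cells. In macrophage-like cells of Smad3-KO, Il1a stood at 0.0628 of its neutrophil-like level, Il1r2 at 0.0681, Il1rn at 0.0922 and Il1b at 0.0991, where 14 neutrophil markers stood at a median of 0.0633 (range 0 to 0.149). In those of Smad3-WT, Il1a stood at 0.0437, Il1r2 at 0.0656, Il1rn at 0.0690 and Il1b at 0.0701, where the markers stood at a median of 0.0509 (range 0.0375 to 0.150). Each of these quotients lay inside the range of the markers, whose part in the levels was not tested. In monocyte-like cells Il1a stood at 0.181 in Smad3-WT and 0.151 in Smad3-KO and Il1r2 at 0.113 and 0.0767. Il1rn stood there at 0.139 and 0.384 and Il1b at 0.168 and 0.124. These quotients lay inside wider marker ranges of 0.0799 to 0.456 and 0 to 0.529, with medians of 0.115 and 0.0841. Among these Smad3-KO quotients of Il1a, Il1b, Il1r2 and Il1rn, that of Il1rn (0.384) lay farthest above the marker median, and it takes in the 5 cells of cluster 14. A range from 0 to 0.529 is too wide for a place inside it to tell carried-over transcripts from the cells' own. What part carried-over neutrophil transcripts had in these monocyte-like levels and ratios was not tested. Il18 stood at 1.44 and 1.40 in monocyte-like and at 0.482 and 0.565 in macrophage-like cells, outside the range of the markers in each case.

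**Figure D4:**
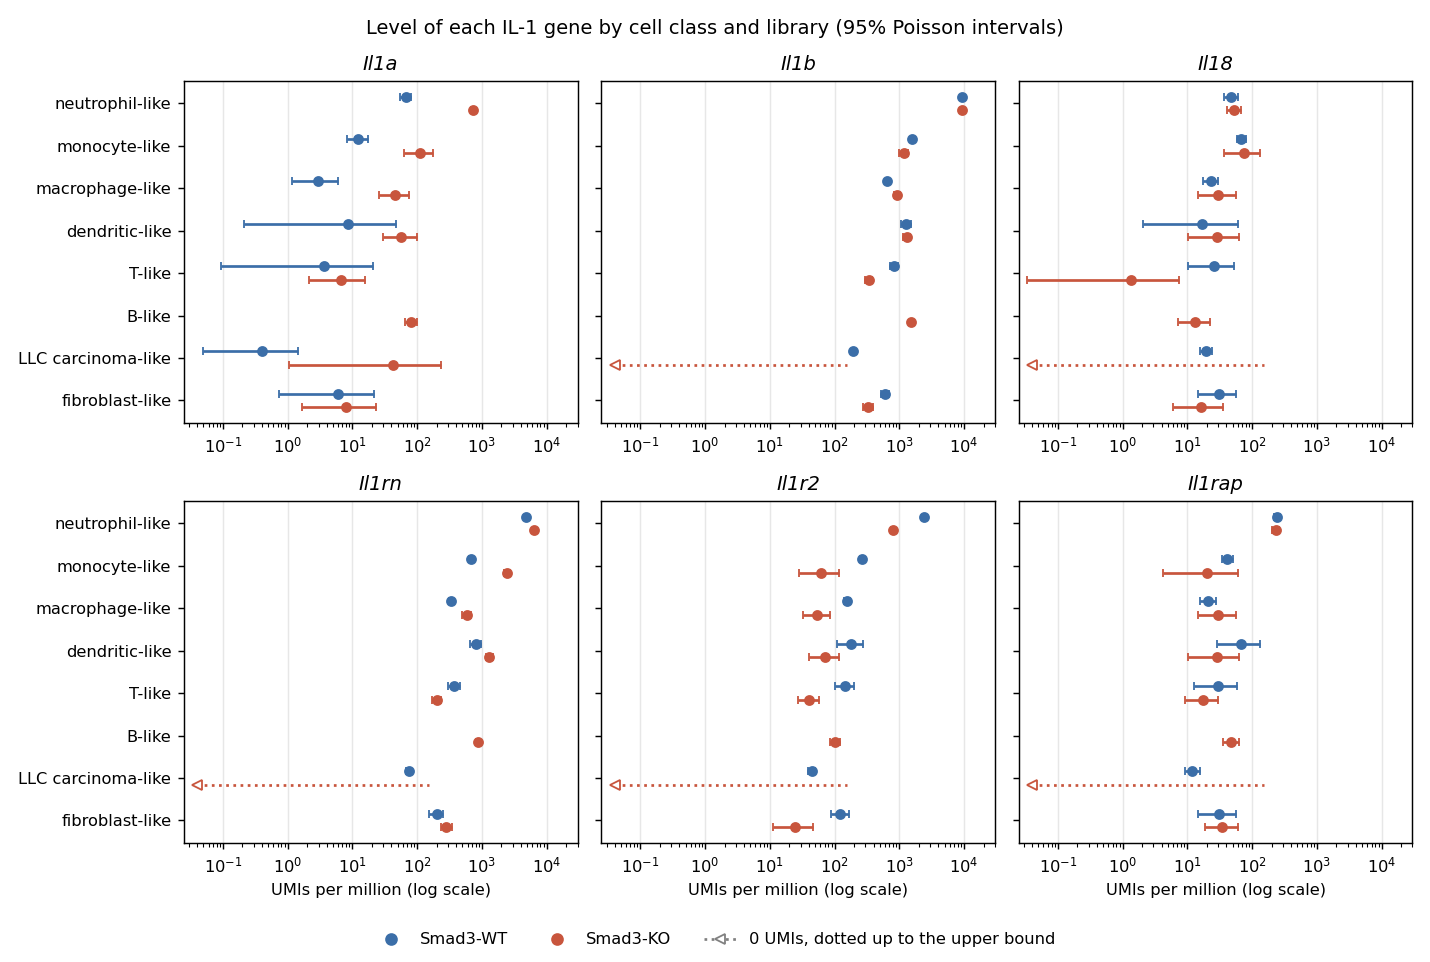
Level of each gene, in CPM on a log axis, by cell class and library (blue, Smad3-WT, and red, Smad3-KO), with 95% Poisson intervals; open triangles mark 0 UMIs, dotted up to the upper bound, and the 2 B-like cells of Smad3-WT are not drawn. Neutrophil-like cells have the highest level of each gene except Il18, which is highest in monocyte-like cells.

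T-like cells had Il1b at 828 CPM in Smad3-WT and 336 CPM in Smad3-KO and fibroblast-like cells at 610 and 333 CPM, which were 0.0902, 0.0359, 0.0664 and 0.0355 of the neutrophil-like levels and again inside the range of the neutrophil markers. Dendritic-like cells had 1268 CPM in Smad3-WT and 1306 CPM in Smad3-KO, with Il1rn at 803 and 1310 CPM. B-like cells, nearly all from Smad3-KO, had Il1b at 1526 CPM, but most of their UMIs came from cluster 12, where 4 neutrophil markers also passed and Il1b stood at 6025 CPM, whereas the larger B-like cluster 5 had 239 CPM. Neutrophil-like cells held 67.0% of all Il1b UMIs of kept cells in Smad3-WT and 81.0% in Smad3-KO, and 70.3% and 86.8% of those of Il1a. Of the UMIs of all genes they held 12.8% and 30.2%.

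Genes that act beside these ligands were read from lists of other ligands, other receptors, maturation and signalling. Of 12 genes for maturation and release, 8 reached 20 UMIs in neutrophil-like cells, and 2 were past 2-fold higher, 1 past 2-fold lower and 5 within 2-fold in Smad3-KO. Over all 5851 genes with at least 20 UMIs in this class, 7.61% were past 2-fold higher and 20.5% past 2-fold lower. Nlrp3, the sensor of the inflammasome that activates caspase-1, was 296 CPM in Smad3-WT and 760 CPM in Smad3-KO (ratio 2.57, interval 2.30 to 2.88). Casp4, of the noncanonical inflammasome, was 86.8 and 278 CPM (ratio 3.20, interval 2.62 to 3.94). Pycard, the adaptor between sensor and caspase-1, was 28.9 and 8.78 CPM, on 45 and 11 UMIs (ratio 0.304, interval 0.142 to 0.596), and Casp1 itself was 24.4 and 39.9 CPM (ratio 1.63, interval 1.05 to 2.56). The sensor and the adaptor of the same complex therefore stood on opposite sides, with few UMIs of Pycard. Monocyte-like cells, which also held Pycard, made up 21.1% of Smad3-WT and 3.54% of Smad3-KO UMIs. What part of the Pycard UMIs in neutrophil-like cells came from other classes was not tested.

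Of 8 other receptors of the family, 3 reached 20 UMIs, with 0 higher and 2 lower past 2-fold, beside 7.61% and 20.5% of all 5851 genes. Il18r1, a chain of the IL-18 receptor, gave 25 UMIs in Smad3-WT and 5 UMIs in Smad3-KO, 4.02-fold lower (interval 1.51 to 13.5). Il1rl2, the receptor of the IL-36 ligands, gave 22 and 0 UMIs, which is 5.90-fold lower with 3 UMIs set in place of 0. Il1rl1, the IL-33 receptor, gave 15 and 0 UMIs, 4.02-fold lower against the same floor. Both values leave out the counting error of the Smad3-WT UMIs. These low counts come to fewer than 20 CPM in either library. Of 7 other ligands and binding proteins, 2 reached 20 UMIs and 0 were past 2-fold. Il18bp, which binds and blocks IL-18, was 30.2 CPM in Smad3-WT and 48.7 CPM in Smad3-KO (ratio 1.61, interval 1.08 to 2.41), and Il1f9, the gene of the ligand IL-36γ, was 735 and 945 CPM (ratio 1.29, interval 1.19 to 1.40).

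Of 12 genes that signal below the receptor, 11 reached 20 UMIs, with 1 higher and 0 lower past 2-fold. The shares over all 5851 genes of the class were again 7.61% and 20.5%. Irak3, a kinase-like protein that restrains signalling, was 50.8 CPM in Smad3-WT and 249 CPM in Smad3-KO neutrophil-like cells (ratio 4.91, interval 3.82 to 6.36). Myd88, the adaptor of the receptor, was 103 and 118 CPM (ratio 1.14, interval 0.907 to 1.44). Macrophage-like cells had 9 genes for maturation, 2 other ligands or binding proteins, 2 other receptors and 11 signalling genes with at least 20 UMIs. In that order, 0, 1, 0 and 1 of them were past 2-fold higher and 1, 0, 0 and 2 past 2-fold lower. Over all 8427 genes of that class the shares were 10.3% and 13.6%. In macrophage-like cells Casp1 was past 2-fold lower on 133 and 7 UMIs (ratio 0.381, interval 0.150 to 0.808) and Il1f9 past 2-fold higher on 96 and 27 UMIs (ratio 2.04, interval 1.28 to 3.15). In the same cells Peli1, a ubiquitin ligase of this pathway, was past 2-fold higher (ratio 2.56, interval 1.74 to 3.71) and Irak2, a kinase of the pathway, past 2-fold lower on 122 and 8 UMIs (ratio 0.475, interval 0.201 to 0.966), as was Tab1 on 24 UMIs and 1 UMI (ratio 0.302, interval 0.00734 to 1.85). In monocyte-like cells the same lists had 10, 2, 2 and 10 genes with at least 20 UMIs. Of these, 1, 1, 0 and 0 were past 2-fold higher and 2, 0, 0 and 2 past 2-fold lower. Over all 7712 genes of that class the shares were 13% and 15.4%. There Il18bp was higher on 52 and 18 UMIs (ratio 6.05, interval 3.33 to 10.5), Capn2, a calpain, was lower on 431 and 10 UMIs (ratio 0.406, interval 0.193 to 0.753), and Pycard was lower on 899 and 25 UMIs (ratio 0.486, interval 0.313 to 0.722). Capn1 (ratio 2.06), Traf6 (ratio 0.460) and Map3k7 (ratio 0.448) were past 2-fold on at most 6 Smad3-KO UMIs, with intervals that took in 1.

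Over 23 sums of cells by cluster and library, the genes with the level pattern most like each member were found by Pearson correlation on log2(CPM + 10) among 7353 genes, as a description of sums that share their libraries and cell classes. For Il1a these were Tnf (r = 0.945), Tnfrsf1b (r = 0.945) and Tnfaip3 (r = 0.937). For Il1b they were Trem1 (r = 0.973), Hdc (r = 0.969) and Dgat1 (r = 0.967), and for Il1rn the chemokine genes Ccl3 (r = 0.970) and Ccl4 (r = 0.968) and the receptor gene Ptafr (r = 0.955). Il1r2 was most like Osm (r = 0.976), Rab44 (r = 0.976) and G0s2 (r = 0.973), and Il1rap most like Csf3r (r = 0.943), Slc7a11 (r = 0.940) and Junb (r = 0.936). The weakest likeness was that of Il18, to Lamp2 (r = 0.868), Sirpb1c (r = 0.861) and Fcgr4 (r = 0.858). Between the 6 genes themselves r was highest for Il1b and Il1r2 (0.92) and lowest for Il1a and Il18 (0.32), and that of Il1a with Il1rn was 0.84.

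The authors' averages over 13 clusters of their own give these genes once more, on a scale in which each cluster sums to 1311 UMIs and without a split by genotype. Clusters 1, 3, 4, 6 and 10 held at least 5 neutrophil markers within 2-fold of their highest average and at least 2-fold above the median of the other clusters. Among those 5, the average of Il1a was highest in cluster 3, at 1.33, then 0.375 in cluster 4 and 0.107 in cluster 1, while that of Il1r2 was highest in cluster 6, at 3.98, with 2.81 in cluster 1 and 0.958 in cluster 3. Il1rn was 11.1 in cluster 3 and 3.23 in cluster 6, and Il1b was 11.8 and 15.9 in the same clusters. The authors' cluster with the highest Il1a and Il1rn was thus not the cluster with the highest Il1b and Il1r2. Il18 was highest in cluster 5, at 0.109, where 7 monocyte markers and 0 neutrophil markers were near their top.

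**Figure D5:**
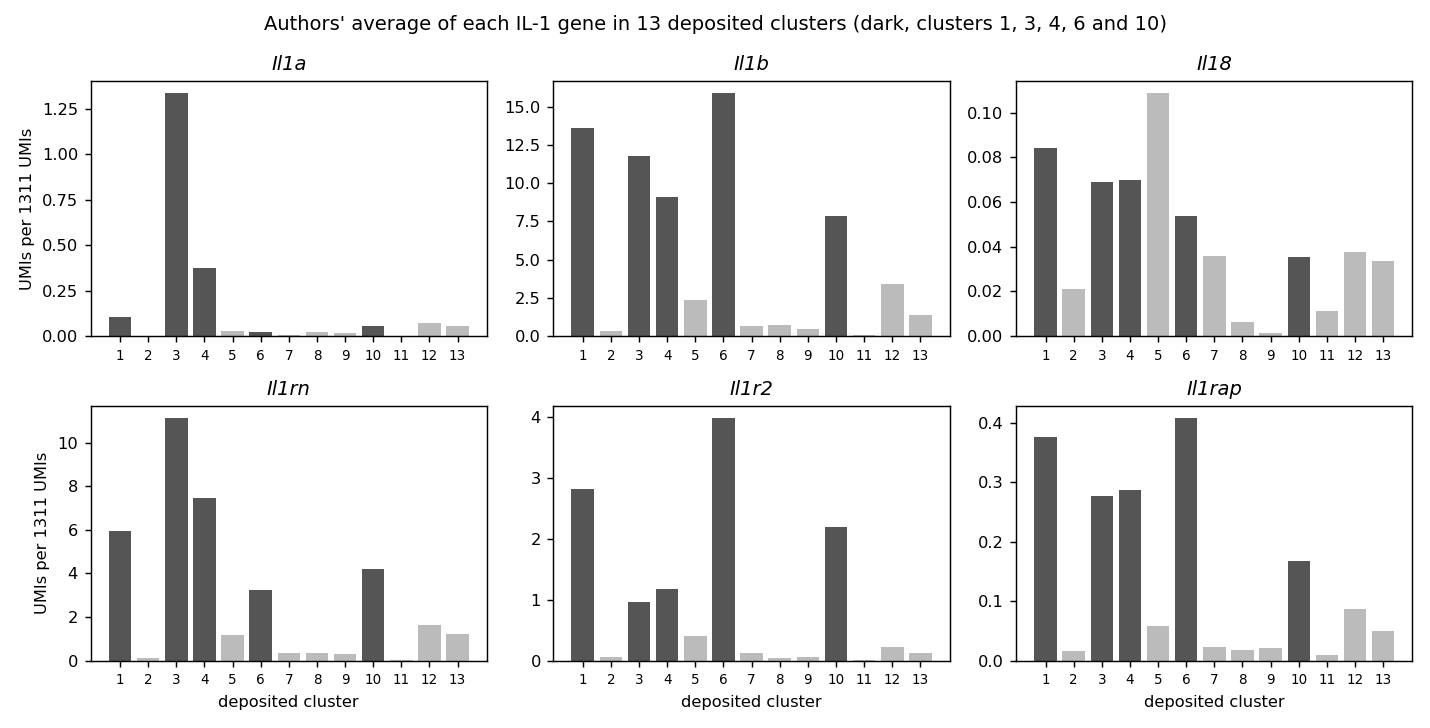
Authors' average of each gene in their 13 clusters, in UMIs per 1311 UMIs, with dark bars for the 5 clusters in which at least 5 neutrophil markers were near their highest level. Il1a and Il1rn peak in cluster 3, Il1b, Il1r2 and Il1rap in cluster 6, and Il18 in cluster 5.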

How the data were processed

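The authors sequenced 1 library of sorted CD11b+Ly6G+ cells per genotype and deposited raw counts of UMIs per gene and barcode, with both libraries in 1 matrix; the submitters' notes name Cell Ranger and the build mm10. The authors also deposited averages per library and per cluster, a signal equal to a gene's share of the UMIs of the set times 1311. The library of each barcode suffix was found by recomputing the 2 library averages (largest differences 4.91e-09 in Smad3-KO and 3.58e-08 in Smad3-WT). The members and gene lists were chosen with earlier results of these data known.

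Barcodes were kept that had 200 or more genes, a mitochondrial share below 10%, and between 500 and 20000 UMIs, both limits excluded. Counts were scaled to 10000 UMIs per cell and log transformed, and 2000 variable genes, without the IL-1 family, gave 100 principal components, a graph of 15 neighbours and Leiden clusters at resolution 1 (leidenalg 0.10.2, igraph 0.11.9, scikit-learn 1.9.0, Python 3.11.15). A cluster was named for the class with the largest share of fixed markers found in at least 10% of its cells at 2 or more times the level of other cells, with at least 3 such markers, so the names were rebuilt and differences from the published classes can arise from that. No doublet caller was run.

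UMIs were summed per class and library and divided by the class total. Ratios have exact intervals from the binomial split of UMIs, levels Poisson and shares Clopper-Pearson intervals (SciPy 1.17.1), all at 95% and for counting error only. With 1 library per genotype no test was made. Genes with at least 20 UMIs in a class were compared by size, and genes at 0 UMIs were set against a floor of 3 UMIs. Besides the 6 genes, the text names listed pathway genes past 2-fold, Il1r1, Il1rl1, Il18r1, Il18bp, Casp1, Nlrp3 and Myd88, the 3 genes most like each member among those with 200 UMIs, markers, and genes leading a cluster; Il1f9 in neutrophil-like cells was named after its values were seen. The interval of the ratios, thinning and naming were tested on simulated data. For the interval these were Poisson counts, which it assumes, so the effect of UMIs that share a cell was not tested. Promoters came from RefSeq (GRCm38.p6). Alternatives to the cell filter, scaling, clusters and treatment of doublets are given at the end.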

Additional observations from a re-analysis of the deposited data

Results flagged for a closer look

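By sums of UMIs, Il1b stood on different sides in 2 classes and in 2 neutrophil-like clusters. Its Smad3-KO to Smad3-WT ratio was 1.44 (interval 1.27 to 1.63) in macrophage-like and 0.755 (interval 0.644 to 0.880) in monocyte-like cells. It was 1.46 (interval 1.39 to 1.54) in cluster 1 and 0.820 (interval 0.712 to 0.941) in cluster 6. The difference between these ratios was not tested, since each genotype had 1 library, and the smaller sides held 89, 64, 138 and 111 Smad3-KO cells. These intervals do not account for UMIs that share a cell. Thinned shares of Smad3-WT and Smad3-KO cells with Il1b were 19.8% and 23.6% in macrophage-like and 33.9% and 32.8% in monocyte-like cells. They were 88.2% and 95.7% in cluster 1 and 54.9% and 54.1% in cluster 6. Only in cluster 1 were the intervals of these shares apart.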

How the results depend on the processing

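The ratios in neutrophil-like cells were recomputed under 17 alternatives each. Those in monocyte-like cells and in single neutrophil-like clusters were not recomputed under any of them. Il1a was past 2-fold higher in all 17 (4.94 to 17.0), Il1r2 past 2-fold lower in 16 of 17 (0.331 to 0.519), and Il1rn was above 1 in 16 of 17 (0.804 to 2.14). Il1b ran from 1.0 to 1.56, Il1rap from 0.874 to 1.46, with 5 of 17 above 1, and Il18 from 0.966 to 1.43, its value under median-of-ratios scaling. Median-of-ratios scaling gave 13.8 for Il1a, 1.30 for Il1b, 1.66 for Il1rn, 0.429 for Il1r2 and 1.21 for Il1rap. Cells assigned 1 by 1 by marker UMIs gave 17.0, 1.56, 2.14, 0.519 and 1.46 in the same order. Clusters with at least 30 cells of both libraries, an alternative chosen after seeing the data, as was leaving out barcode sequences in both libraries, gave 4.94, 1.09, 0.804, 0.468 and 1.25. Without the granule cluster Il1b was 1.13, Il1rn 1.45 and Il1r2 0.370, and without cells with 2 or more UMIs of another class's markers they were 1.13, 1.47 and 0.379. Thinned cells gave 1.06 for Il1b and 1.36 for Il1rn, and the mean over cells gave 1.05 for Il1b. The cause of these shifts was not tested. The count of genes past 2-fold in macrophage-like cells was 2, and 2 to 3 in 15 alternatives, but not of the same genes: they were Il1a and Il1r2 in the clustering reported, Il1rn (2.66) and Il1rap (0.390) with 30 principal components, and Il1a (8.91) and Il1rn (3.79) at a resolution of 2.0. It could not be computed without cells carrying markers of another class, where no gene reached 20 UMIs. No paired analysis was possible because each genotype had 1 library and no result came from a test. Depth limited Il18 and Il1rap in single clusters, where intervals were wide.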

Other observations

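Cluster 12, with 105 Smad3-KO cells and 0 Smad3-WT cells, was named B-like but also carried 4 neutrophil markers. Its levels were 332 CPM for Il1a (interval 261 to 416), 6025 CPM for Il1b (interval 5709 to 6353), 3452 CPM for Il1rn (interval 3214 to 3703) and 385 CPM for Il1r2 (interval 308 to 474). The B-like cluster 5, with 466 Smad3-KO cells, had 13.8 CPM for Il1a, 239 CPM for Il1b, 156 CPM for Il1rn and 21.4 CPM for Il1r2. Il1a made up 5.22% of the Il1a and Il1b UMIs in cluster 12 (interval 4.12 to 6.49), below the 7.87% of the neutrophil-like cluster 2 (interval 7.36 to 8.41), and median UMIs per cell were 1955 in cluster 12, 1153 in cluster 5 and 1080 in cluster 2.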
